A study of Mus musculus with 6 samples.

Results

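The endothelium of the liver was followed through 10 marker genes, *Stab1*, *Stab2*, *Lyve1*, *Clec4g*, *Oit3*, *Fcgr2b*, *Kdr*, *Pecam1*, *Cdh5* and *Gata4*, chosen by name from the 21528 genes listed in any of 6 libraries. All 10 were listed in every library, and all 10 were among the 12225 genes tested, those with a mean of at least 0.5 FPKM. RNA-Seq had been carried out on whole liver from 3 WT mice and 3 TRIM24C52/55A mice, with 1 library per mouse. Both groups were of the C57BL/6 strain, were 5 months of age and had eaten a high-fat diet (HFD, 60 kcal% fat) for 3 months, so that each group carried the diet and no group on another diet is compared here. TRIM24 is an E3 ubiquitin ligase, and the knockin replaces a pair of cysteines in its RING domain with alanine in the germline, in every cell type and not in the endothelium alone. The comparison asked which endothelial transcripts differ between livers with and without the ligase-dead TRIM24.

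Liver sinusoids are lined by fenestrated endothelial cells that lack a continuous basement membrane and let plasma reach the hepatocytes. These cells take up waste molecules from the blood, among them hyaluronan, denatured collagen, modified lipoproteins and small immune complexes, through scavenger, lectin and Fc receptors that other endothelia carry little of. Their growth and upkeep depend on VEGF from neighbouring cells, and the transcription factor GATA4 keeps their sinusoidal identity. *Stab1*, *Stab2*, *Lyve1*, *Clec4g*, *Oit3* and *Fcgr2b* are enriched in the sinusoid, *Kdr*, *Pecam1* and *Cdh5* mark endothelium in general, and *Gata4* is also made by hepatic stellate cells.

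Among these 10 markers only *Lyve1* passed the test for a difference between genotypes, falling to a mean that was 66.8% below that of WT. The other 9 had log2 fold changes from -0.18 to 0.08 and 95% confidence intervals that ran from -0.45 to 0.29 in all. Values are FPKM, the fragments of a gene scaled to transcript length and to the library, and each was tested as log2(FPKM + 1) with limma, with Benjamini-Hochberg adjustment over all genes tested. An adjusted p-value under 0.05 was reached by 1 of the 10 markers, where 7.72% of all genes tested reached it, 6.09% in the lower and 1.64% in the higher direction. Over the 10 markers 7 estimates were below 0 and 3 above, with a median of -0.11 beside a median of -0.08 over all genes tested. In a whole liver, fewer cells of a type and less RNA per cell cannot be told apart, and this holds for every value that follows.

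**Figure D1:**
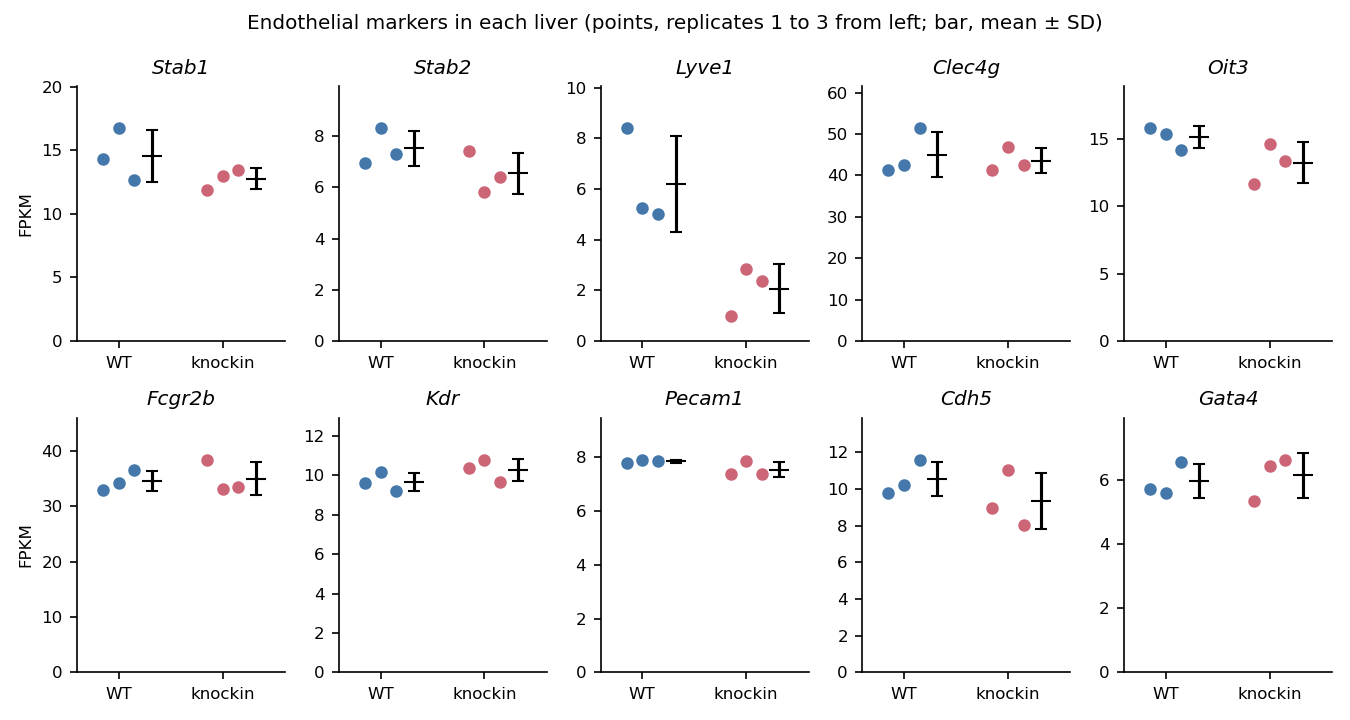
FPKM of the 10 endothelial markers in each liver. Each point is 1 mouse (blue, WT; red, TRIM24C52/55A; replicates 1 to 3 from left), the bar is the mean ± SD of 3 mice, and each vertical axis starts at 0. *Lyve1* is the marker whose groups do not overlap, at 5.00 to 8.40 FPKM in WT and 0.974 to 2.84 FPKM in TRIM24C52/55A.

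*Lyve1* (ENSMUSG00000030787) encodes a hyaluronan receptor of lymphatic and sinusoidal endothelium that is also carried by some tissue macrophages. The gene lies on chromosome 7 from 110850607 to 110863239 on the minus strand (GRCm38), and no other annotated gene overlaps it. WT replicates 1, 2 and 3 held it at 8.40, 5.25 and 5.00 FPKM, and TRIM24C52/55A replicates 1, 2 and 3 at 0.974, 2.84 and 2.38 FPKM, the order in which all values by liver are given. All 3 knockin livers were below all 3 WT livers, with WT replicate 1 standing high in its group and TRIM24C52/55A replicate 1 standing low in its own. Groups without overlap were found for 28.9% of all genes tested, for 22.5% in the lower and 6.31% in the higher direction. Its mean was 6.21 ± 1.89 FPKM in WT and fell to 2.07 ± 0.973 FPKM in the knockin (SD, n = 3 livers each), and the log2 fold change was -1.26 (standard error 0.27, 95% confidence interval -1.87 to -0.65, adjusted p = 0.0281 from limma). A log2 fold change of -1 or lower was reached by 1.21% of all genes tested. The exact two-sided permutation test on FPKM gave p = 0.1, the smallest value that 3 against 3 allows. Scaled by the length of its longest coding transcript, 2893 bases, the *Lyve1* values corresponded to about 247 to 410 fragments in the WT libraries and about 46 to 137 in the knockin libraries.

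The call on *Lyve1* was lost when any WT liver or TRIM24C52/55A replicate 1 was left out. Without WT replicate 1 the log2 fold change was -1.05 (adjusted p = 0.0872, limma), without WT replicate 2 it was -1.35 (adjusted p = 0.0609), and without WT replicate 3 it was -1.38 (adjusted p = 0.0683). Without TRIM24C52/55A replicate 1 it was -0.97 (adjusted p = 0.0639). In each of the 15 alternative settings tried, *Lyve1* remained lower in the knockin, by 0.97 to 1.63 on the log2 scale, and the adjusted p-value ranged from 0.0196 to 0.0964, being under 0.05 in 9 settings and above it in 6.

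Markers of other cells and vessels that can carry *Lyve1* are given here beside it. Of 5 lymphatic endothelial genes tested, none was called by limma (none at an unadjusted p under 0.05) and the median log2 fold change was -0.15. *Reln*, the most abundant of them, which stellate cells also make, was the only estimate of the 5 above 0, with a log2 fold change of 0.24 (adjusted p = 0.218). *Nr2f2* had one of -0.18 (adjusted p = 0.487), and *Ccl21a*, the lowest estimate of the 5, had one of -0.45 (adjusted p = 0.416, groups overlapping). The lymphatic markers *Pdpn* and *Mmrn1* were below 0.5 FPKM in every library. All 14 Kupffer cell and macrophage markers tested had estimates below 0, beside 65.5% of all genes tested, with a median of -0.29. None of the 14 had an adjusted p-value under 0.05, beside 7.72% of all genes tested, and 3 had an unadjusted p under 0.05, beside 23.6%. Their summed level was 318 to 396 FPKM in WT and 261, 378 and 265 FPKM in TRIM24C52/55A replicates 1 to 3. *Cd5l* and *Clec4f*, the most abundant of them, had log2 fold changes of -0.38 (adjusted p = 0.149) and -0.24 (adjusted p = 0.258). In summed macrophage level TRIM24C52/55A replicate 2 was the highest knockin liver and was within the WT range. In *Lyve1* it was also the highest knockin liver, at 2.84 FPKM beside 0.974 and 2.38 FPKM, and was below each WT liver. The part of these cells in the fall of *Lyve1* was not tested.

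*Stab1* and *Stab2* encode stabilin-1 and stabilin-2, large scavenger receptors of the sinusoid, the latter a main receptor for clearing hyaluronan from blood. *Stab1* (ENSMUSG00000042286, chromosome 14 from 31134853 to 31168641, minus strand) had 14.3, 16.7 and 12.6 FPKM in WT and 11.9, 13.0 and 13.5 FPKM in TRIM24C52/55A. The groups overlapped, and the log2 fold change was -0.17 (standard error 0.11, 95% confidence interval -0.42 to 0.09, adjusted p = 0.420). *Stab2* (ENSMUSG00000035459, chromosome 10 from 86839094 to 87028015, minus strand) had 6.96, 8.30 and 7.30 FPKM in WT and 7.41, 5.81 and 6.40 FPKM in TRIM24C52/55A. Its groups overlapped as well, and the log2 fold change was -0.18 (standard error 0.11, 95% confidence interval -0.43 to 0.08, adjusted p = 0.390). The means of the hyaluronan receptors in WT and knockin were thus 6.21 and 2.07 FPKM for *Lyve1* and 7.52 and 6.54 FPKM for *Stab2*, and the difference between their fold changes was not tested. *Nt5dc2*, a gene on the opposite strand that overlaps *Stab1*, was at 2.65 to 4.34 FPKM, and whether the counting used strand is not given in the sources used here.

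*Clec4g*, which encodes the C-type lectin LSECtin, was the most abundant of the 10 markers. This gene (ENSMUSG00000074491, chromosome 8 from 3707064 to 3739044, minus strand) had 41.3, 42.4 and 51.3 FPKM in WT and 41.3, 46.9 and 42.5 FPKM in TRIM24C52/55A. WT replicate 3 was the highest liver and the other 5 lay between 41.3 and 46.9 FPKM, and the log2 fold change was -0.04 (standard error 0.10, 95% confidence interval -0.27 to 0.19, adjusted p = 0.853). *Oit3*, used as a marker of sinusoidal cells, had 15.8, 15.4 and 14.2 FPKM in WT and 11.6, 14.7 and 13.4 FPKM in TRIM24C52/55A (ENSMUSG00000009654, chromosome 10 from 59422958 to 59441778, minus strand). Its lowest WT liver lay between the knockin livers, and the log2 fold change was -0.18 (standard error 0.10, 95% confidence interval -0.42 to 0.05, adjusted p = 0.324), the smallest adjusted p-value among the 9 markers other than *Lyve1*.

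*Fcgr2b* encodes the inhibitory receptor for the Fc part of IgG, by which sinusoidal cells take up small immune complexes and which B cells and macrophages also carry. It had 33.0, 34.3 and 36.6 FPKM in WT and 38.4, 33.05 and 33.5 FPKM in TRIM24C52/55A (ENSMUSG00000026656, chromosome 1 from 170958617 to 170977746, minus strand). The highest liver was a knockin and the other 2 knockin livers lay within the WT range, the log2 fold change being 0.01 (standard error 0.09, 95% confidence interval -0.19 to 0.21, adjusted p = 0.955). *Fcgr2b* and the neighbouring receptor gene *Fcgr3* share closely similar sequence, and reads could be split between them. *Fcgr3*, an activating receptor of macrophages and neutrophils, had 7.43, 6.82 and 7.23 FPKM in WT and 5.03, 6.43 and 5.37 FPKM in TRIM24C52/55A, a log2 fold change of -0.31 that missed the threshold (adjusted p = 0.122, limma).

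*Kdr*, *Pecam1* and *Cdh5* encode the main VEGF receptor of endothelium, the adhesion molecule CD31 and the junction protein VE-cadherin. *Kdr* (ENSMUSG00000062960, chromosome 5 from 75932827 to 75978458, minus strand) had 9.61, 10.2 and 9.23 FPKM in WT and 10.4, 10.8 and 9.68 FPKM in TRIM24C52/55A. The ranges overlapped, and the log2 fold change was 0.08 (standard error 0.09, 95% confidence interval -0.11 to 0.28, adjusted p = 0.627). *Pecam1* (ENSMUSG00000020717, chromosome 11 from 106654217 to 106750628, minus strand) had 7.79, 7.89 and 7.84 FPKM in WT and 7.37, 7.87 and 7.37 FPKM in TRIM24C52/55A. It was the steadiest marker, the highest of its 6 livers being 1.07 times the lowest, and its log2 fold change was -0.05 (standard error 0.08, 95% confidence interval -0.24 to 0.14, adjusted p = 0.761). *Cdh5* (ENSMUSG00000031871, chromosome 8 from 104088916 to 104144511, plus strand) had 9.80, 10.2 and 11.6 FPKM in WT and 8.95, 11.04 and 8.04 FPKM in TRIM24C52/55A. TRIM24C52/55A replicate 2 lay among the WT livers and the other 2 knockin livers below them, the log2 fold change being -0.17 (standard error 0.12, 95% confidence interval -0.45 to 0.12, adjusted p = 0.472). *Gata4* (ENSMUSG00000021944, chromosome 14 from 63198922 to 63271692, minus strand) had 5.74, 5.59 and 6.58 FPKM in WT and 5.36, 6.46 and 6.64 FPKM in TRIM24C52/55A. The lowest and the highest liver for *Gata4* were both knockins, and the log2 fold change was 0.03 (standard error 0.11, 95% confidence interval -0.22 to 0.29, adjusted p = 0.889).

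**Figure D2:**
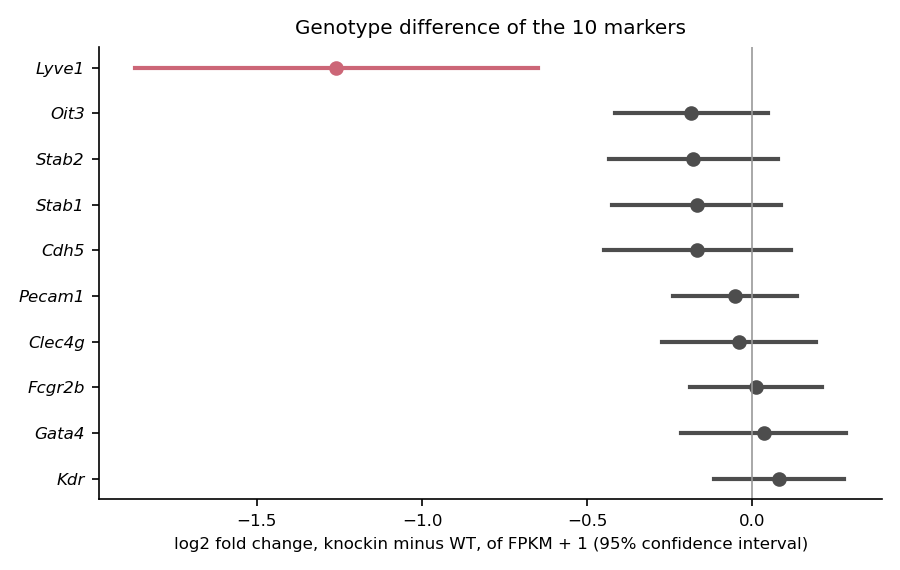
Difference between TRIM24C52/55A and WT livers for each marker. Points are the log2 fold change of FPKM + 1 from limma (3 livers per group), lines are 95% confidence intervals, and the vertical line marks no difference. The interval of *Lyve1*, in red, runs from -1.87 to -0.65 and lies apart from 0, while the intervals of the other 9 markers include 0.

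For the 9 markers other than *Lyve1*, exact permutation p-values were between 0.2 and 0.9, none was called by limma (none at an unadjusted p under 0.05, beside 23.6% of all genes tested), and no group stood clear of the other. The highest liver was 1.07 to 1.44 times the lowest for these 9, and 8.62 times the lowest for *Lyve1*. A p-value above the threshold does not show that these transcripts were equal, and the lower limits of the intervals on the log2(FPKM + 1) scale ran from -0.11 for *Kdr* to -0.45 for *Cdh5*. Summed over the 9 markers, the level was 144, 151 and 157 FPKM in WT and 143, 149.5 and 141 FPKM in TRIM24C52/55A. TRIM24C52/55A replicate 1 held the lowest value of 4 markers (*Stab1*, *Lyve1*, *Oit3* and *Gata4*) and the highest of *Fcgr2b*, while WT replicate 2 held the highest value of 3 markers and the lowest of none.

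Ordered by mean FPKM over the 6 livers, a scale per length of transcript, the markers ran from *Clec4g* (44.3) and *Fcgr2b* (34.8) through *Oit3* (14.2), *Stab1* (13.7), *Kdr* (9.97), *Cdh5* (9.94), *Pecam1* (7.69), *Stab2* (7.03) and *Gata4* (6.06) to *Lyve1* (4.14). In WT alone the mean of *Lyve1*, 6.21 FPKM, was above the 5.97 FPKM of *Gata4*, through WT replicate 1 (8.40 beside 5.74 FPKM). In WT replicates 2 and 3 *Lyve1* was the lowest of the markers, at 5.25 and 5.00 FPKM beside 5.59 and 6.58 FPKM of *Gata4*. The levels of *Clec4g* and *Fcgr2b* were separate from each other and from the rest in every liver. Neighbours whose ranges over the 6 livers overlapped, and whose order is not fixed by these data, were *Oit3* and *Stab1*, *Kdr* and *Cdh5*, *Pecam1* and *Stab2*, *Stab2* and *Gata4*, and *Gata4* and *Lyve1*. All 6 sinusoid-enriched markers were listed in each liver, 5 of them above 5 FPKM throughout, while *Lyve1* was below 3 FPKM in each knockin liver.

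A ratio to general endothelial genes of the same liver does not move with the scaling of the library. Relative to the geometric mean of *Pecam1* and *Cdh5*, *Lyve1* stood at 0.961, 0.583 and 0.525 in WT and at 0.120, 0.305 and 0.309 in TRIM24C52/55A. The knockin ratios were all below the WT ratios, by a log2 difference of -1.57 (exact permutation p = 0.1). *Kdr* stood at 1.10, 1.13 and 0.968 in WT and at 1.28, 1.16 and 1.26 in TRIM24C52/55A. Those ratios did not overlap either, in the higher direction, with a log2 difference of 0.21 (exact permutation p = 0.1). For *Stab1*, *Stab2*, *Clec4g*, *Oit3*, *Fcgr2b* and *Gata4* the ratios of the groups overlapped, with log2 differences from -0.08 to 0.16 and exact permutation p-values from 0.2 to 0.8. With 8 ratios and a smallest possible p of 0.1, none could pass a threshold of 0.05. Set against the geometric mean of 23 pan-endothelial genes in place of these 2, the log2 difference was -1.65 for *Lyve1* (exact permutation p = 0.1) and 0.13 for *Kdr*, whose groups then overlapped (exact permutation p = 0.2).

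**Figure D3:**
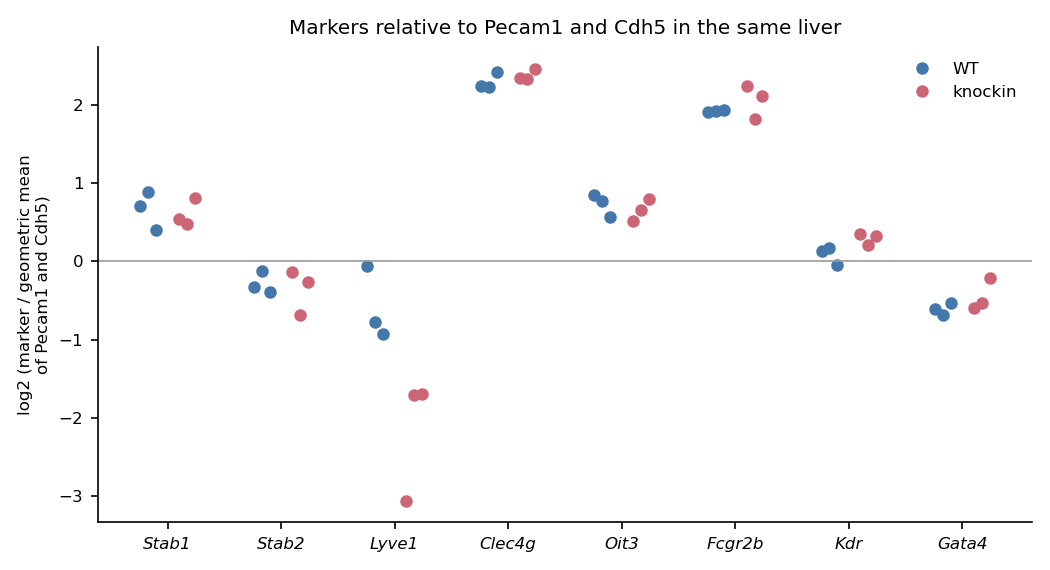
Level of each marker relative to the geometric mean of *Pecam1* and *Cdh5* in the same liver, on a log2 scale. Each point is 1 liver (blue, WT; red, TRIM24C52/55A) and the line at 0 marks a level equal to that mean. *Lyve1* lies below its WT points in all 3 knockin livers, *Kdr* lies slightly above them, and the points of the other 6 markers overlap.

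The start sites of 5 markers (*Stab1*, *Stab2*, *Clec4g*, *Fcgr2b* and *Kdr*) were matched in a table of RefSeq promoters on GRCm38.p6, each a window of 250 bases before to 50 bases after the start. *Lyve1*, *Oit3*, *Pecam1*, *Cdh5* and *Gata4* were not matched. ETS and GATA factors regulate many endothelial genes, and the windows were searched on both strands for a word of each type. The ETS-type word, AGGAAG, was found in 3 of the 5 windows, beside 35.4% of 32851 promoters in the table. A GATA-type word, for which the letters AGATAA were used, was found in 0 of the 5 windows, beside 11.2% of the promoters. The stretches that hold the ETS-type word are shown 5′ to 3′ along the gene, with the word or its reverse complement in capitals, since they belong to 3 clearance receptors whose levels are compared above. The first base of the word lies 116 bases before the start of *Stab1*, 40 before that of *Stab2*, and 123 and 86 before that of *Clec4g*, where the second stretch holds a pair of overlapping words. A match is a run of letters and not a measured binding site.
Stab1, chr14:31168740-31168769, minus strand: gcgtcctgggccAGGAAGccctgaacaggg
Stab2, chr10:87007965-87007994, minus strand: cacctactttccCTTCCTaaccagggaaag
Clec4g, chr8:3720757-3720786, minus strand: accattagctggCTTCCTacacaaaagtat
Clec4g, chr8:3720718-3720747, minus strand: cgacatggaaAGGAAGGAAGggagggaggg

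Beyond the 10 markers, lists of other genes of the sinusoid and of endothelium were written from general knowledge. Among 20 further sinusoidal genes tested, 1 was lower, *Cd36* (beside 6.09% of all genes tested), and the median log2 fold change was -0.07. *Cd36*, a fatty acid transporter and scavenger receptor that hepatocytes and macrophages also make, had a log2 fold change of -1.64 (adjusted p = 0.000333), and the other abundant gene of the list, *Ehd3*, had one of 0.07 (adjusted p = 0.722). None of 23 pan-endothelial genes tested was called by limma (beside 7.72% of all genes tested), with a median of -0.06. An unadjusted p under 0.05 was reached by 3 of the 23 genes, beside 23.6% of all genes tested. The 2 most abundant of the 23, *Eng*, a co-receptor of the BMP family, and *Egfl7*, a secreted endothelial protein, had log2 fold changes of -0.22 (adjusted p = 0.237) and -0.33 (adjusted p = 0.329). The largest estimate of the list was that of *Tek*, the angiopoietin receptor. It had 2.94, 3.42 and 3.44 FPKM in WT and 5.05, 3.57 and 7.55 FPKM in TRIM24C52/55A. Its log2 fold change was 0.54 (adjusted p = 0.158), and 0.30 without TRIM24C52/55A replicate 3 (adjusted p = 0.289). Without replicate 2 of that group it was 0.76 (adjusted p = 0.0308), and calls over all genes rose from 944 to 1280. *Tek* was the 1 gene of the list higher without overlap between groups, beside 6.31% of all genes tested. Lower without overlap were 3, beside 22.5%, namely *Robo4* (-0.27, adjusted p = 0.205), *Icam2* (-0.29, adjusted p = 0.192) and *Mmrn2* (-0.06, adjusted p = 0.733).

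Among 14 genes of capillary, arterial and venous endothelium, 1 was lower, and the median log2 fold change was -0.18. Of these 14, 11 had estimates below 0 (beside 65.5% of all genes tested), 4 had an unadjusted p under 0.05 (beside 23.6%) and 5 were lower without overlap between groups (beside 22.5%). *Plvap*, which forms the diaphragms of fenestrated capillaries, had 22.6, 25.3 and 25.1 FPKM in WT and 17.0, 19.6 and 17.4 FPKM in TRIM24C52/55A. Its groups did not overlap, and it fell by 0.41 on the log2 scale (standard error 0.09, adjusted p = 0.0308). The adjusted p-value of *Plvap* was above 0.05 without WT replicate 1 (0.0652), 2 (0.103) or 3 (0.121) and without TRIM24C52/55A replicate 1 (0.112) or 3 (0.0753), and was 0.0618 with median-of-ratios scaling, the call holding in 6 of 15 alternative settings. *Gpihbp1*, the capillary anchor of lipoprotein lipase, had a log2 fold change of -0.35 (adjusted p = 0.259). Counted once each, the 56 genes of these 3 lists held 2 lower and 0 higher calls (3.6%, beside 7.72% of all genes tested), with a median of -0.09.

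Among VEGF ligands and receptors, the list to which *Kdr* belongs, calls were made in both directions. *Nrp1* and *Nrp2* encode neuropilins, co-receptors for VEGF and semaphorins that are made by several cell types of the liver. *Nrp2* had 4.99, 4.62 and 4.87 FPKM in WT and 2.38, 2.09 and 2.24 FPKM in TRIM24C52/55A, with -0.85 ± 0.09 as log2 fold change (± standard error, adjusted p = 0.00257). *Nrp1* had 9.12, 9.54 and 10.001 FPKM in WT and 18.4, 15.5 and 14.2 FPKM in TRIM24C52/55A, with 0.68 ± 0.11 as log2 fold change (± standard error, adjusted p = 0.0102). Thus *Nrp2* fell and *Nrp1* rose, neither with any overlap between groups, and each kept its call in all 15 alternative settings. The ligand *Vegfa* had a log2 fold change of 0.08 (adjusted p = 0.667) and the receptor *Flt1* one of 0.03 (adjusted p = 0.919). Of the 9 VEGF genes tested, 1 was lower, 1 higher and 7 not called, beside 6.09% lower and 1.64% higher among all genes tested, with a median of 0.00.

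Among all genes tested 7.72% were called and 23.6% had an unadjusted p under 0.05. None of 19 angiopoietin, Notch and BMP signalling genes was called by limma (2 at an unadjusted p under 0.05), with a median of -0.07, *Angptl4* at 0.06 (adjusted p = 0.903) and *Id3* at 0.37 (adjusted p = 0.278). None of 10 genes of the endothelial adherens junction, the complex built around the product of *Cdh5*, was called (none at an unadjusted p under 0.05), with a median of -0.02, *Ctnnb1* at 0.04 (adjusted p = 0.801) and *F11r* at -0.08 (adjusted p = 0.716). Of 6 Fc receptor genes none was called (2 at an unadjusted p under 0.05). *Fcgrt*, which encodes the receptor that recycles IgG and albumin, had a log2 fold change of -0.36 (adjusted p = 0.0568), and *Fcer1g*, the signalling chain of activating Fc receptors, had one of -0.17 (adjusted p = 0.595). Leaving out TRIM24C52/55A replicate 2 raised the calls over all genes from 944 to 1280. Without that liver, *Fcgrt* (-0.45, adjusted p = 0.0201), *Fcgr3* (-0.40, adjusted p = 0.0383) and *Egfl7* (-0.54, adjusted p = 0.0313) passed the threshold. *Fcgrt* also passed it with TPM (adjusted p = 0.0255).

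Of 13 hyaluronan and scavenger clearance genes tested, 3 were lower and none higher (6.09% of all genes tested were lower), with a median of -0.17. The 3 were *Lyve1*, already counted among the markers, *Lgals1* and *Colec12*. The receptor genes *Stab2* and *Clec4g*, also on the list, were not called. *Lgals1* encodes galectin-1, a lectin that binds galactosides and is made by many cell types, and it had 45.8, 40.8 and 55.9 FPKM in WT and 15.4, 12.1 and 20.1 FPKM in TRIM24C52/55A. The groups stood far apart, the log2 fold change being -1.54 (standard error 0.18, adjusted p = 0.00318), and the call held in all 15 alternative settings. *Colec12*, a scavenger receptor with a collagen-like stalk, had 13.1, 13.1 and 12.1 FPKM in WT and 9.34, 10.6 and 9.03 FPKM in TRIM24C52/55A, with -0.37 ± 0.09 as log2 fold change (± standard error, adjusted p = 0.0463). Its adjusted p-value was above 0.05 without WT replicate 1 (0.151), 2 (0.137) or 3 (0.109), without TRIM24C52/55A replicate 1 (0.146) or 3 (0.115), and with median-of-ratios scaling (0.116), and the call held in 5 of 15 settings. The hyaluronan receptor *Cd44* had a log2 fold change of -0.10 (adjusted p = 0.779) and the lipoprotein receptor *Scarb1* one of 0.05 (adjusted p = 0.900).

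**Figure D4:**
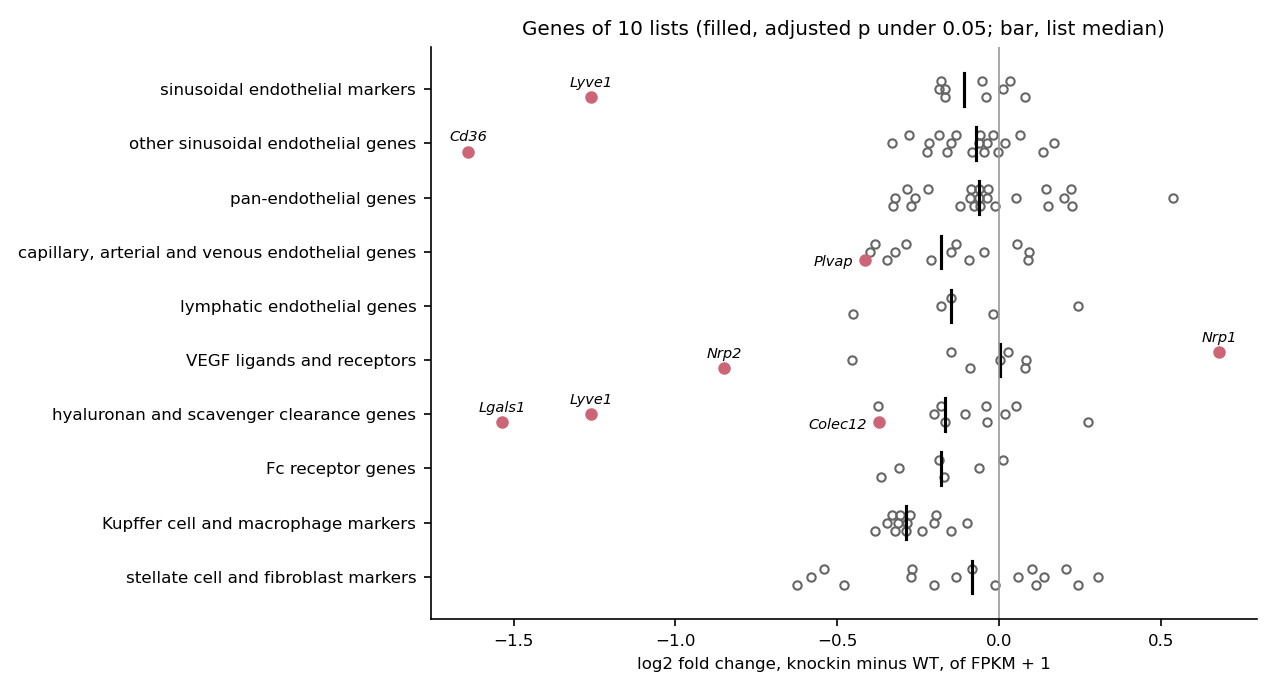
Log2 fold change, TRIM24C52/55A against WT, of each tested gene in 10 lists. Each point is 1 gene, filled where the adjusted p-value was under 0.05 (limma), and the bar is the median of the list. Named points are *Lyve1*, *Cd36*, *Plvap*, *Nrp1*, *Nrp2*, *Lgals1* and *Colec12*, while the medians of the lists lie between -0.29 and 0.00.

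Over all genes tested, 744 were lower and 200 higher, and with median-of-ratios scaling 406 were lower and 250 higher. Of 17 stellate cell and fibroblast markers none was called and 10 had estimates below 0. Groups did not overlap for 2 lower and 3 higher genes, beside 22.5% and 6.31% of all genes tested. An unadjusted p under 0.05 was reached by 6 of the 17, beside 23.6% of all genes tested. Those 6 were *Col1a1* (log2 fold change -0.62, adjusted p = 0.156), *Col3a1* (-0.58, adjusted p = 0.142), *Col1a2* (-0.54, adjusted p = 0.0887, groups without overlap), *Tagln* (-0.48, adjusted p = 0.138), *Pdgfrb* (-0.27, adjusted p = 0.180) and *Lrat* (0.31, adjusted p = 0.151). Without TRIM24C52/55A replicate 2, *Col1a1* (-0.93, adjusted p = 0.00854), *Col1a2* (-0.74, adjusted p = 0.0077), *Col3a1* (-0.83, adjusted p = 0.0149) and *Tagln* (-0.67, adjusted p = 0.0174) passed the threshold. Calls over all genes rose from 944 to 1280 when that liver was left out. The summed level of the list, most of it from *Ecm1* and *Dcn*, was 278 to 282 FPKM in WT and 262 to 323 FPKM in the knockin. *Trim24* itself was at 4.85 to 5.96 FPKM in WT and 4.31 to 8.46 FPKM in TRIM24C52/55A, and since the knockin changes codons within the gene this does not check the labels. Libraries listed 17709 to 17984 genes, and steps between low values put their depth at 0.965 to 1.03 times that of WT replicate 1. TRIM24C52/55A replicate 2 held *Adipoq*, *Plin1* and *Lep*, genes of fat cells, at 4.55, 3.32 and 3.98 FPKM, with at most 0.127 FPKM of each elsewhere, and the log2 fold change of *Lyve1* without it was -1.45 (adjusted p = 0.023). WT replicate 1, the liver with the most *Lyve1*, had the highest sum of erythroid genes, 1803 FPKM beside 524 to 941 FPKM in the other 5. The part of blood and of fat cells in these results was not tested, beyond the values without those livers.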

How the data were processed

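RNA from liver of 3 WT and 3 TRIM24C52/55A mice had been sequenced, and for each mouse the authors deposited a table of FPKM that lists genes above 0. The submitters' processing notes name bcl2fastq, Salmon 0.14.0, DESeq2 1.30.0 and GRCm38 with no role for each, and which of them gave the FPKM is not given in the sources used here. FPKM keep no total count, so counting error is known only roughly, from the steps between low values (1 fragment per kilobase was worth 0.0572 to 0.0613 FPKM). Libraries were grouped by labelled genotype, and replicates are different mice.

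Values were tested as log2(FPKM + 1), with a pseudocount of 1, in the 12225 genes whose mean reached 0.5 FPKM. The model was fitted in limma 3.58.1 (R 4.3.3) with lmFit and a trended eBayes, and p-values were adjusted by Benjamini and Hochberg's method. Fold changes on this scale understate those of genes of low FPKM such as *Lyve1*. Single markers and ratios had an exact two-sided permutation test. Genes absent from a table were set to 0. Tables and plots were made with matplotlib 3.10.9, scipy 1.17.1, pandas 2.3.3 and numpy 2.4.6 under Python 3.11.15. The test was checked on simulated data. Coordinates are those of the files, and for *Stab1*, *Stab2*, *Clec4g*, *Fcgr2b* and *Cdh5* the interval is longer than the GENCODE M21 gene.

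The members, the lists and the rule were chosen with earlier results of these data known. The rule names all 10 markers and *Trim24*, then for each other list at most 5 genes with an adjusted p-value under 0.05 by size of change, the 2 with the highest mean FPKM, and *Vegfa*, *Flt1*, *Fcgr3*, *Fcer1g* and *Cd44*. *Adipoq*, *Plin1*, *Lep*, *Pdpn*, *Mmrn1*, *Ccl21a*, *Col1a1*, *Col1a2*, *Col3a1*, *Tagln*, *Pdgfrb*, *Lrat*, *Trbc2*, *Cd3e*, *Cd3g*, *Cd8a*, *Tek*, *Robo4*, *Icam2*, *Mmrn2* and *Alas2* were named after their values were seen. A further gene that the rule names is not reported here. Alternatives were a pseudocount of 0.1, no filter, a filter of 1 FPKM, TPM (FPKM rescaled to a fixed total), quantile and median-of-ratios scaling, eBayes with no trend or a robust one, each liver left out, and the replicate block.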

Additional observations from a re-analysis of the deposited data

How the results depend on the processing

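The count of called markers, 1 of 10, was 0 without the filter and 0 to 1 with each liver left out in turn, and the count over all genes, 944, was 347 without the filter, 1555 with TPM and 294 (without TRIM24C52/55A replicate 1) to 1280 (without TRIM24C52/55A replicate 2) with each liver left out. Without the filter 21528 genes were tested, and other causes of these shifts were not tested. Same-numbered mice are different animals and did not deviate together (correlations of -0.123, -0.099 and 0.003), and the replicate block gave 0 markers and 578 genes, with *Lyve1* at an adjusted p of 0.0715. The share of lower genes among the calls was 78.8%, and 61.9% with median-of-ratios and 59.7% with quantile scaling.

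*Lyve1* kept its direction throughout, also as a ratio to *Pecam1* and *Cdh5*, which ranged from -1.80 to -1.11 with each liver left out. None of 135 values of the other 9 markers was called, and 11 changed sign near 0. With TPM the log2 fold change was -0.051 for *Fcgr2b*, -0.021 for *Gata4* and *Ctnnb1*, -0.020 for *Flt1*, -0.010 for *Scarb1*, -0.0067 for *Angptl4* and -0.0049 for *Dcn*. With median-of-ratios scaling it was 0.060 for *Clec4g*, 0.040 for *Pecam1* and 0.021 for *F11r*, and with quantile scaling 0.11, 0.041 and 0.065, with *Apoa1* at -0.081. With each liver left out in turn, the markers that changed sign ranged from -0.098 to 0.055 (*Clec4g*), -0.055 to 0.051 (*Fcgr2b*) and -0.015 to 0.12 (*Gata4*). Other genes that did so ranged from -0.048 to 0.092 (*Flt1*), -0.14 to 0.30 (*Angptl4*), -0.33 to 0.016 (*Fcer1g*), -0.16 to 0.17 (*Scarb1*), -0.26 to 0.021 (*Cd44*), -0.038 to 0.14 (*Dcn*), -0.21 to 0.041 (*Nkg7*) and -0.061 to 0.35 (*Trim24*). With 3 livers per group, the confidence intervals of the markers give the precision.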

Other observations

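Other cell types of the liver were read from short lists in the same livers. Of 11 hepatocyte genes tested, 2 were lower and 1 higher, beside 6.09% lower and 1.64% higher among all genes tested. *Glul*, which encodes the glutamine synthetase of the hepatocytes around the central vein, was at 588 ± 26.7 FPKM in WT and fell to 282 ± 7.68 FPKM (SD, n = 3 livers each). Its log2 fold change was -1.06 (adjusted p = 0.000288, limma), a difference that stayed called in all 15 alternative settings. *Cyp2e1*, a pericentral cytochrome P450, had a log2 fold change of -0.54 (adjusted p = 0.0318), called in 8 of 15 settings. *Cps1*, the first enzyme of the urea cycle and mostly periportal, had one of 0.63 (adjusted p = 0.0281), called in 9 of 15. *Apoa1* and *Ttr*, which encode plasma proteins, had log2 fold changes of 0.15 (adjusted p = 0.548) and -0.18 (adjusted p = 0.318). *Ecm1* and *Dcn*, matrix genes of stellate cells and fibroblasts, had log2 fold changes of 0.14 (adjusted p = 0.474) and 0.06 (adjusted p = 0.783), while the estimates of the collagen genes *Col1a1*, *Col1a2* and *Col3a1* were below 0 (-0.62, -0.54 and -0.58, none called).

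Of 23 genes tested in 5 short lists of other cells, *Cd4* and *Adrb3* were called (8.7%, beside 7.72% of all genes tested). *Cd4*, the co-receptor of helper T cells, was at 0.384 ± 0.0309 FPKM in WT and 1.99 ± 0.129 FPKM in the knockin (SD, n = 3 livers each) with a log2 fold change of 1.11 (adjusted p = 0.00108, limma), while *Nkg7* of cytotoxic cells had one of -0.11 (adjusted p = 0.735). Of the other T cell genes in the list, *Trbc2* had a log2 fold change of -0.27 (adjusted p = 0.196, groups without overlap), and *Cd3e*, too low to be tested, was at 0.416 to 0.877 FPKM in WT and 0.0688 to 0.515 FPKM in the knockin. *Cd3g* and *Cd8a* were below 0.5 FPKM in every library, with overlapping groups. *Adrb3*, a beta-adrenergic receptor of fat cells, was at 2.07 ± 0.0893 FPKM in WT and rose to 10.3 ± 2.31 FPKM (SD, n = 3 livers each, log2 fold change 1.86, adjusted p = 0.000716, limma), and *Cfd*, an adipokine, had a log2 fold change of -1.61 (adjusted p = 0.0617). The neutrophil genes *S100a9* and *S100a8* had log2 fold changes of -0.64 (adjusted p = 0.442) and -0.71 (adjusted p = 0.111), the cholangiocyte gene *Spp1* one of -0.58 (adjusted p = 0.192), and the globin genes *Hbb-bs* and *Hba-a2*, each a close copy of other globin genes, had values of -0.82 (adjusted p = 0.167) and -0.89 (adjusted p = 0.151). *Alas2*, the erythroid enzyme of heme synthesis, went the other way, with 52.8 to 57.0 FPKM in WT, 60.4 to 86.7 FPKM in the knockin and a log2 fold change of 0.48 (adjusted p = 0.0718). None of these 6 was called. Without WT replicate 1 the log2 fold changes were -0.42 for *Hbb-bs*, -0.46 for *Hba-a2* and -0.31 for *Spp1*, and without TRIM24C52/55A replicate 2 that of *S100a9* was -0.15. With 1 liver left out, *Alas2* (0.65, adjusted p = 0.0047) and *Cfd* (-2.05, adjusted p = 0.0205) passed the threshold without TRIM24C52/55A replicate 2, and *S100a8* (-0.95, adjusted p = 0.0287) did so without replicate 3 of that group. Calls over all genes were 1280 without replicate 2 and 788 without replicate 3, beside 944 with all livers. *Cfd* also passed the threshold with the replicate block (adjusted p = 0.0128) and with TPM (adjusted p = 0.0448), and *Alas2* with quantile scaling (adjusted p = 0.0437).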
